A study of Mus musculus with 33 samples.

Results

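The genes described here are 10 genes whose RNA was higher in the hippocampal CA1 region of aged APP mice given JQ1 than in APP mice given vehicle: Lnpep, Gucy1a2, Xkr4, Ptpn4, Bmpr2, BC005561, Fzd3, Stxbp5l, Fam135b and Vps13a. They were chosen for the size of that rise, out of 16962 genes tested of 38355 listed. Values of JQ1 against vehicle in APP mice, and of either APP group against WT mice, are therefore given as descriptions. Calls of these genes from the fit over all genes are given as counts, and nothing is read from them as a test. All 10 passed the filter on low counts. The young mice had no part in the choice, and the comparison in them is a test.

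JQ1 occupies the acetyl-lysine pocket of the BET bromodomain proteins, which bind acetylated histones and recruit the elongation factor P-TEFb to genes. The 10 genes do not form a single pathway. Lnpep encodes a membrane aminopeptidase that cleaves oxytocin, vasopressin and angiotensin peptides and travels with the glucose transporter GLUT4. Gucy1a2 encodes an alpha subunit of the soluble guanylate cyclase that makes cGMP in response to nitric oxide. Bmpr2 is a type II receptor for bone morphogenetic proteins, and Fzd3 is a Frizzled receptor of Wnt and planar polarity signalling needed for axon tract growth. Ptpn4 is a tyrosine phosphatase with FERM and PDZ domains. Stxbp5l (tomosyn-2) binds syntaxin and restrains vesicle fusion, and Vps13a, mutated in chorea-acanthocytosis, transfers lipids between membranes. Xkr4 belongs to the XK family, which includes lipid scramblases. BC005561 is named Thoc2l by RefSeq, after THOC2 of the THO complex for mRNA export. Fam135b is little characterised.

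RefSeq promoter sequences (GRCm38.p6) were at hand for 6 of the 10 genes, and 4 had no entry. Shown here are the 150 bases before the RefSeq start of 3 of them, those whose window held at most 4 bases of an annotated exon. They are shown because in all 6 the 250 bases before the start were richer in GC than the merged exons of the gene. Tested genes in general also had more GC there, with medians of 59.2% before the start and 49.5% in exons. In Lnpep, Ptpn4 and Bmpr2 the 150 bases lay wholly within an annotated exon. Each is written 5′ to 3′ on the strand of the gene, with every CG dinucleotide in capitals. The windows are chr9:3532199-3532348 on the plus strand for Gucy1a2, chr16:37384959-37385108 on the minus strand for Stxbp5l and chr19:16780934-16781083 on the minus strand for Vps13a.
Gucy1a2: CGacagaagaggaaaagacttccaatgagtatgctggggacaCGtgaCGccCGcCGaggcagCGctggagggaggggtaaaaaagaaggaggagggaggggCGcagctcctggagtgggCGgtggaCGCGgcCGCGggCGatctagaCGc
Stxbp5l: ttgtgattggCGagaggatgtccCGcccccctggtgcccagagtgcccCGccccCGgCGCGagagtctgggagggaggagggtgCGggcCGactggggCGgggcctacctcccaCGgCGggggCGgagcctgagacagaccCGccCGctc
Vps13a: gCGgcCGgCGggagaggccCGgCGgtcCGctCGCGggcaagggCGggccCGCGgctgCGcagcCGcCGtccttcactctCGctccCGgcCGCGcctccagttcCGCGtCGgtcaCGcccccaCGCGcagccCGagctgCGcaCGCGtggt
These 3 windows held 14, 14 and 28 CG dinucleotides. Over the whole 250 bases before the start, the 6 genes had 14 (Stxbp5l), 17 (Gucy1a2), 22 (Bmpr2), 25 (Lnpep), 36 (Ptpn4) and 37 (Vps13a), against a median of 6 over 32851 promoters. Their GC content there was 59.6 to 71.2%, against a median of 52.4% over those promoters and 59.2% over the promoters of genes tested, so that Gucy1a2 (59.6%) lay near the median of the latter. The GC box GGGCGG, searched on both strands, was in 5 of the 6 and in 32.7% of all promoters, and Ptpn4 lacked it. CCAAT was in Gucy1a2 and Stxbp5l and in 33.8% of all. The E-box CACGTG was in Gucy1a2 alone of the 6 and in 6.02% of all, and TATAAA was in none of the 6 and in 12.4% of all. The CG and motif figures for all promoters include genes not tested here, and none is given for promoters of tested genes alone. These matches are letters in a window and not measured binding sites.

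RNA from the CA1 region was sequenced in 2 experiments. In the aged experiment, APP/PS1-21 mice in a C57B/6 background, aged 8 to 10 months and carrying mutant APP and presenilin-1 transgenes under the neuronal Thy1 promoter, received 50 mg/kg JQ1 (n = 6) or vehicle with 10% DMSO (n = 6) intraperitoneally for 10 days. A WT vehicle group of the same age had 4 samples with counts, of 5 labelled; the strain label of these samples names the APP line, and they were taken as WT from their titles. In the young experiment, C57B/6JRj mice aged 3 months received 50 mg/kg JQ1 (n = 8) or vehicle with 10% DMSO (n = 8) for 13 days. By the study's methods the APP mice were females, the young mice were males, and tissue was taken the day after a memory probe test. The labels name the samples singly and do not describe how mice were allotted, so the p-values measure the spread between these samples. The 2 experiments thus differ in age, sex, genotype, days of injection and read processing, and the parts of these in any difference between them cannot be told apart.

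The aged libraries held 14605459 to 25339482 reads assigned to genes, and a count of 3 reads was 0.118 to 0.205 per 1e6 of these reads, before TMM scaling. CPM values of genes are counts scaled to a common library total by TMM and given per 1e6 reads. The lowest count of any of the 10 genes in any library was 14. The young files gave FPKM only, so their depth is unknown. Libraries stood apart in several ways. Reads of 8 liver-type genes (Alb, Apoa1, Apoa2, Serpina1c, Hp, Fgb, Ahsg and Cyp2e1, a list made after the values were seen) summed to 2483 CPM in APP JQ1 replicate 3, 1847 in APP JQ1 replicate 4 and 711 in APP vehicle replicate 4, to 198 in WT vehicle replicate 1, and to 1.04 to 89.4 in the other 12. Of those 12, APP JQ1 replicates 2, 5 and 6 had 37.7, 64.3 and 89.4 CPM and replicate 1 had 1.49. The vehicle libraries among them had at most 3.80 CPM. Group medians were thus 76.9 CPM in APP JQ1, 1.90 in APP vehicle and 1.85 in WT vehicle. The share of reads outside annotated exons was highest in APP JQ1 replicate 2 (26.9%) and APP vehicle replicate 2 (24.5%) and lowest in APP vehicle replicate 3 (15.4%). Markers of pyramidal neurons, CA1 and other hippocampal cells were present, and none of 39 cell type markers tested was called by edgeR between APP JQ1 and APP vehicle, where 1.08% of all genes were, so that a count of 0 among 39 is near the background. Summed pyramidal neuron markers ranged from 5411 to 8098 CPM in APP JQ1, 6271 to 7651 in APP vehicle and 6685 to 8492 in WT vehicle. Astrocyte markers were 2200 to 6815, 3079 to 7173 and 1881 to 2134 CPM in the same order. Summed choroid plexus markers (2 tested) reached 3128 CPM in a WT vehicle library, where the group median was 39.7. They were at most 141 CPM in APP JQ1 and 98.6 in APP vehicle. In bulk tissue, fewer cells of a type and less RNA per cell cannot be told apart.

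Lnpep and Gucy1a2 had the largest log2 differences of the 10. Lnpep was 23.4 CPM at its lowest, 29.96 at the median and 41.6 at its highest in the 6 APP JQ1 mice, and 2.47, 4.44 and 8.85 CPM in the 6 APP vehicle mice. In the 4 WT vehicle mice it was 3.34, 3.72, 3.16 and 2.45 CPM. Every JQ1 mouse thus stood above every other mouse, and the means were 30.7 ± 6.40 CPM (SD, n = 6) against 4.92 ± 2.13 (n = 6) and 3.17 ± 0.53 (n = 4). The fitted log2 difference of JQ1 from vehicle was 2.65 (SE 0.23), a 6.26-fold level. Gucy1a2, the cyclase subunit, was 9.03, 12.4 and 13.6 CPM (lowest, median, highest) in APP JQ1 and 0.75, 2.20 and 2.58 in APP vehicle. It was nearly the same in the 4 WT mice, at 2.24, 2.20, 2.32 and 2.24 CPM. The log2 difference between the APP groups was 2.51 (SE 0.22), with no overlap.

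The surface receptors Bmpr2 and Fzd3 also lay wholly above the vehicle mice. Bmpr2 was 18.1, 31.4 and 37.6 CPM in APP JQ1 and 2.26, 5.46 and 13.3 in APP vehicle. The WT mice had 3.29, 5.67, 4.68 and 3.89 CPM. Its highest vehicle value came from APP vehicle replicate 2 and its lowest JQ1 value from APP JQ1 replicate 6, and the log2 difference was 2.32 (SE 0.36). Fzd3 was 5.62, 10.7 and 15.4 CPM in APP JQ1 and 2.19, 2.87 and 3.74 in APP vehicle. The values in WT were 2.09, 2.10, 1.48 and 2.53 CPM. Its log2 difference was 1.87 (SE 0.23), and its JQ1 mice spread widely while its vehicle mice lay close together.

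**Figure D1:**
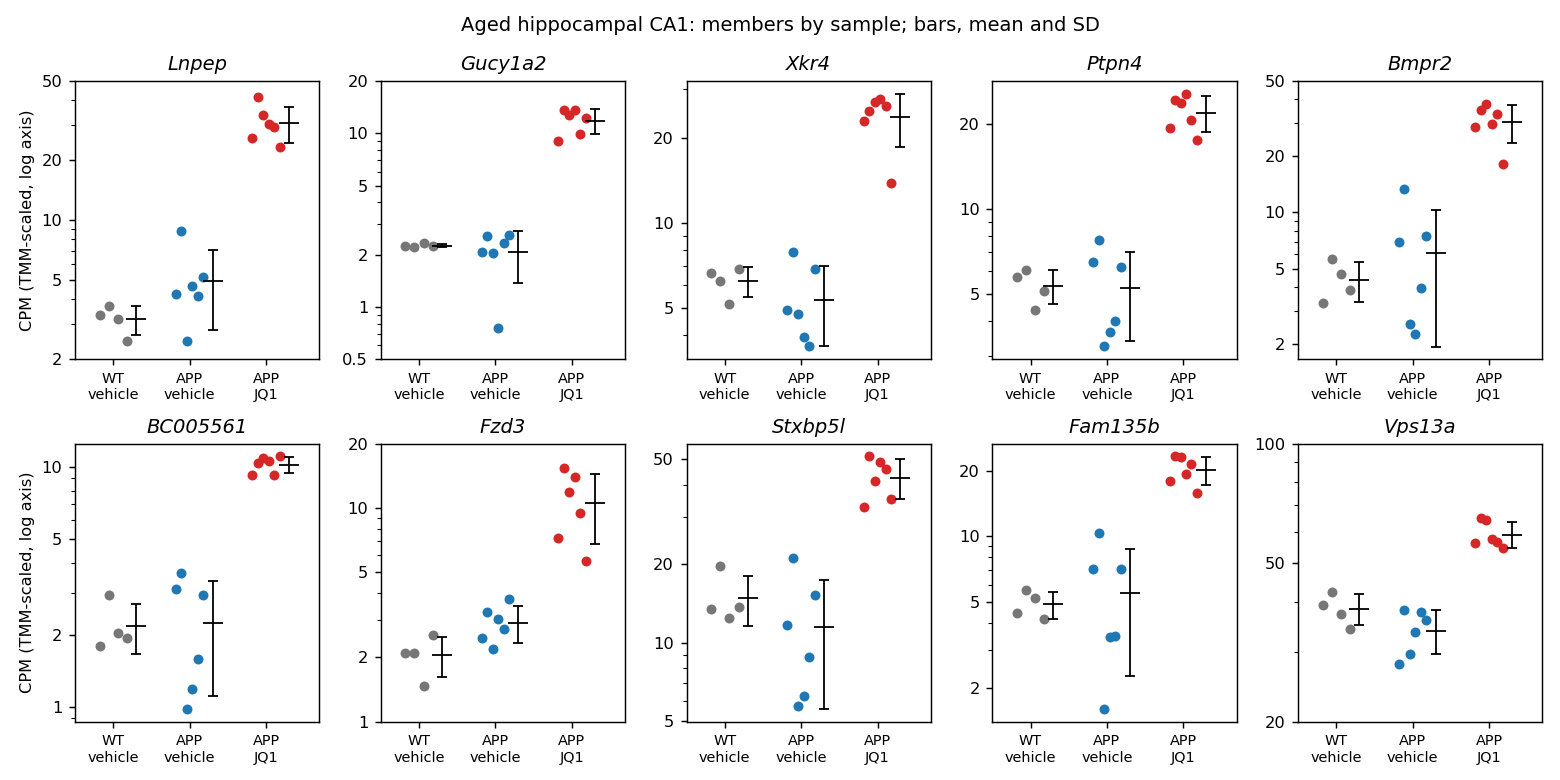
Level of each of the 10 genes in the 16 aged samples, in TMM-scaled CPM on a log axis. Each point is 1 mouse, the horizontal tick is the mean and the bar is the SD; in each panel the 6 APP JQ1 points lie above all vehicle points, from 54.6 CPM against at most 42.5 for Vps13a to 23.4 against at most 8.85 for Lnpep.

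The phosphatase, the vesicle protein and the 2 membrane lipid proteins covered a wide range of levels. Ptpn4 was 17.5, 22.2 and 25.6 CPM in APP JQ1 against 3.25, 5.11 and 7.72 in APP vehicle. In WT it was 5.73, 6.06, 4.38 and 5.11 CPM, and the log2 difference between APP groups was 2.07 (SE 0.19). The WT and vehicle values of this gene shared one range. Stxbp5l was 32.9, 43.5 and 51.2 CPM in APP JQ1 and 5.71, 10.2 and 21.0 in APP vehicle. WT mice had 13.4, 19.5, 12.4 and 13.6 CPM. Its vehicle mice varied more than for most of the genes, and the log2 difference was 1.90 (SE 0.27). Xkr4 was 13.9, 25.5 and 27.5 CPM in APP JQ1 and 3.64, 4.82 and 7.86 in APP vehicle. In WT it was 6.62, 6.21, 5.14 and 6.84 CPM. APP JQ1 replicate 6 was low for this gene, and the log2 difference was 2.16 (SE 0.20). Vps13a was 54.6, 57.1 and 65.2 CPM in APP JQ1 and 27.9, 34.8 and 38.1 in APP vehicle. WT mice had 39.3, 42.5, 37.4 and 34.3 CPM. It had the highest CPM and the smallest difference of the 10, 0.81 on the log2 scale (SE 0.09), a 1.75-fold level.

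The remaining genes were BC005561 and Fam135b. BC005561 was 9.27, 10.5 and 11.1 CPM in APP JQ1, the narrowest JQ1 range of the 10, and 0.98, 2.26 and 3.61 in APP vehicle. In WT it was 1.79, 2.93, 2.02 and 1.94 CPM. The log2 difference between APP groups was 2.20 (SE 0.27). As for reads shared with Thoc2, 7 of its 5360 distinct 50-base words occurred in annotated transcripts of any other gene, all in Thoc2. For the other 9 genes the share of such words found in other genes was at most 0.463% (Fam135b). Fam135b was 15.7, 20.4 and 23.3 CPM in APP JQ1 and 1.604, 5.27 and 10.3 in APP vehicle. In WT it was 4.43, 5.67, 5.19 and 4.18 CPM, and the log2 difference was 1.88 (SE 0.31). Other annotated genes overlap Lnpep, Ptpn4, Bmpr2, Fzd3, Stxbp5l, Vps13a and Xkr4, the last with 9 of them, and the strand setting of the counting is not given in the sources used here, so reads of overlapping genes could not be told apart.

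With 184 genes called in all (1.08%), all 10 genes were called higher at an adjusted p under 0.05 (edgeR quasi-likelihood, Benjamini-Hochberg over all genes), as were 0.619% of all genes tested, and all 10 had groups that did not overlap, as did 0.878% of all genes in that direction and 1.15% in the other. Because this contrast chose the genes, nothing is read from these counts. The choice followed neither order fully. By log2 difference among called genes, 9 of the 10 stood at ranks 1 to 13, with Fzd3 (1.87) just inside and Dgkh (1.76) just outside; Far1os (2.30), Zfp871 (1.99), ENSMUSG00000090498 (1.97) and Lcor (1.94) stood between them and are not members. Vps13a stood at rank 41 by log2 difference and 5 by p, next to Ube3a (1.101), which is not a member. By p, Fam135b stood at rank 30, just inside Usp9x (0.97) at 31. Genes with still larger log2 differences that were not called, led by Mug2 (4.07), Hamp (4.002) and Rdh7 (3.88), are expressed mainly in liver, and their groups overlapped; they were named after their values were seen.

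The fit was repeated without the libraries that stood apart in liver-type genes or in reads outside exons, a choice made after seeing the data. Without the 3 libraries richest in liver-type genes, the log2 differences of the 10 genes lay between 0.78 (Vps13a) and 2.60 (Lnpep), and 8 of the 10 were called. Those not called were Bmpr2, with a log2 difference of 2.08 beside 2.32 with all libraries, and Fam135b, with 1.74 beside 1.88. All genes called fell from 184 to 16 in that fit. Still in it were APP JQ1 replicates 2, 5 and 6, with 37.7 to 89.4 CPM of liver-type genes. Without the 2 libraries richest in reads outside exons, the differences lay between 0.82 (Vps13a) and 2.80 (Lnpep), and 10 were called of 117 in all. With offsets for exon GC content and exonic length in each sample, they lay between 0.48 (Vps13a) and 2.39 (Lnpep), and 10 were called of 31. Since these samples chose the genes, the values are a description, and the part of the libraries or of GC content and length in the rise was not tested.

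Vehicle-treated APP and WT mice overlapped for all 10 genes. The log2 difference of APP vehicle from WT vehicle ran from −0.37 for Stxbp5l (SE 0.29) to 0.63 for Lnpep (SE 0.26), with a median of 0.00 over the 10 and 0.01 over all genes. None of the 10 was called by edgeR, while 2.57% of all genes were. In none did the 2 groups separate, while 4.94% of all genes separated upward and 2.05% downward. Counts of 0 among 10 are near these background shares. APP JQ1 mice stood above WT as well: the log2 difference ran from 0.62 for Vps13a (SE 0.10) to 3.28 for Lnpep (SE 0.28). All 10 were called higher there, against 1.93% of all genes (2.06% in either direction), and all 10 separated, against 2.55% upward and 1.17% downward. Without WT vehicle replicate 5 the count called was 6, and Bmpr2 (2.74), Vps13a (0.58), Fam135b (1.99) and Stxbp5l (1.49) were not called. The 3 comparisons share mice, so these counts are not independent of the choice.

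In young mice the levels of the same genes overlapped between JQ1 and vehicle. Lnpep was 15.0, 17.3 and 18.9 FPKM (lowest, median, highest) in 8 young JQ1 mice and 15.7, 16.6 and 19.6 in 8 young vehicle mice. Gucy1a2 was 8.23, 9.67 and 11.4 FPKM with JQ1 and 7.19, 7.87 and 11.3 with vehicle. The ranges of the groups overlapped for both, though for Gucy1a2 the vehicle median (7.87) lay below the lowest JQ1 value (8.23). Bmpr2 was 19.5, 21.9 and 23.7 FPKM with JQ1 and 18.3, 21.9 and 24.4 with vehicle. Fzd3 was 10.3, 10.9 and 12.8 FPKM with JQ1 and 9.28, 10.9 and 12.6 with vehicle. For these receptors the medians almost coincided. Stxbp5l was 19.5, 24.6 and 28.6 FPKM with JQ1 and 19.5, 25.9 and 32.0 with vehicle. Fam135b was 8.13, 10.5 and 11.8 FPKM with JQ1 and 9.18, 10.1 and 11.5 with vehicle. Vps13a was 7.53, 10.8 and 12.4 FPKM with JQ1 and 9.77, 10.5 and 11.99 with vehicle. BC005561 was somewhat higher at the median with JQ1, with overlapping groups. Its locus, which the young files join with AC123687.1, was 6.91, 7.94 and 10.0 FPKM with JQ1 and 5.91, 7.04 and 9.23 with vehicle.

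Xkr4 and Ptpn4 each had 2 young loci with identical coordinates. Both genes lie on the minus strand, and loci are numbered by strand within a chromosome: of the named loci that follow in the numbering, 43 of 43 (Xkr4) and 46 of 47 (Ptpn4) were minus-strand genes for one locus of each pair, and 0 of 41 and 0 of 43 for the other. The first was used. It was 8.38, 10.8 and 11.7 FPKM with JQ1 and 8.74, 9.99 and 11.99 with vehicle for Xkr4. For Ptpn4 it was 17.5, 21.99 and 24.5 FPKM with JQ1 and 20.2, 22.03 and 32.9 with vehicle. The other locus had mean FPKM of 4.14 ± 1.37 against 3.71 ± 1.42 for Xkr4 and 5.71 ± 1.18 against 5.19 ± 1.90 for Ptpn4 (SD, n = 8 each).

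**Figure D2:**
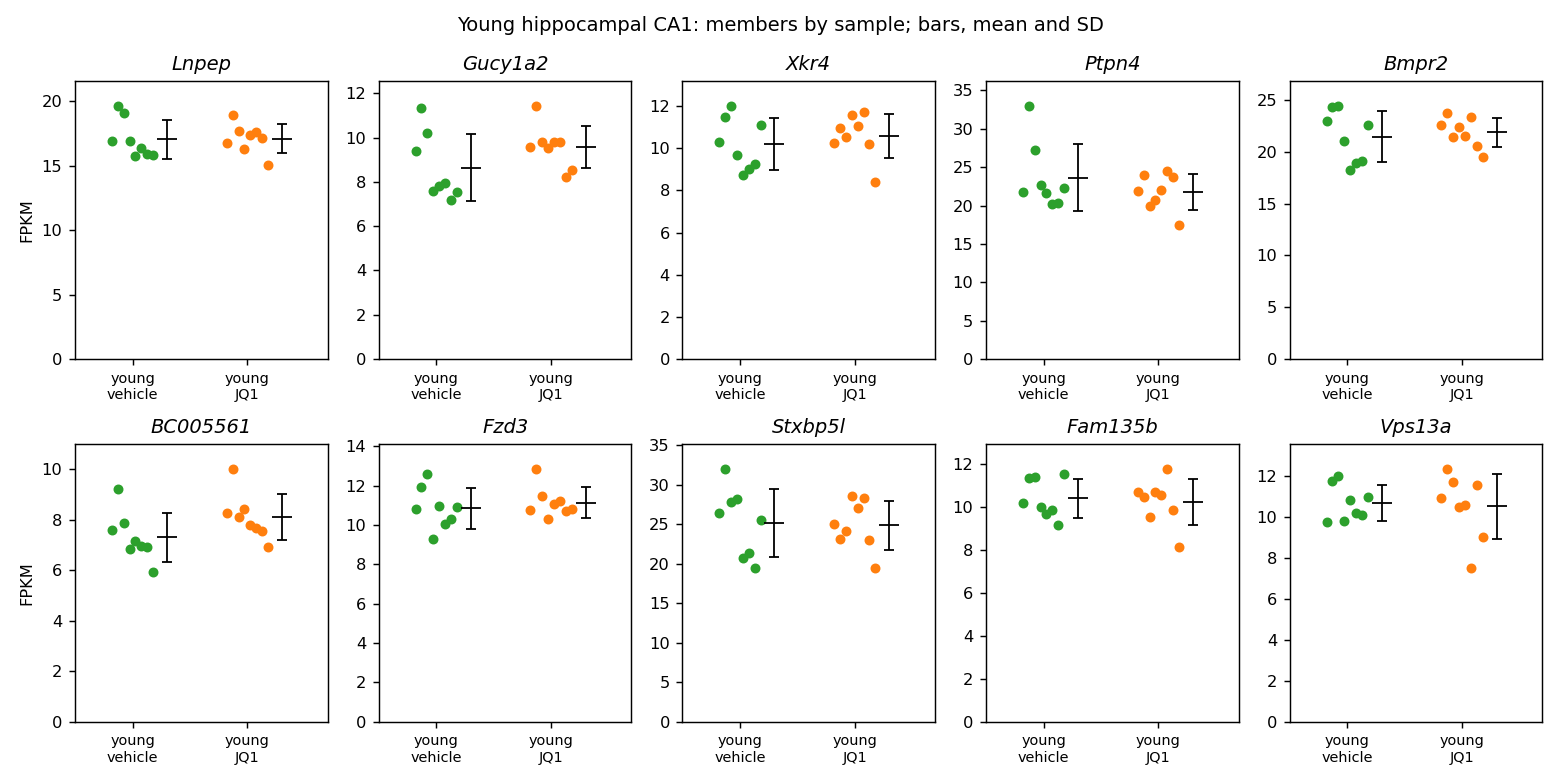
Level of each of the 10 genes in the 16 young samples, in FPKM on linear axes that start at 0. Each point is 1 mouse, the tick is the mean and the bar the SD; JQ1 and vehicle points overlap in every panel, as for Lnpep at 15.0 to 18.9 against 15.7 to 19.6 FPKM.

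None of the 10 passed the test in young mice. The log2 difference of JQ1 from vehicle, on the log2(FPKM + 0.1) scale, ran from −0.11 for Ptpn4 (95% interval −0.31 to 0.09) to 0.16 for Gucy1a2 (−0.03 to 0.36), with a median of 0.02 over the 10 and 0.00 over all 18420 loci. The adjusted p was at least 0.981 for each (limma, Benjamini-Hochberg over all loci). Two-sided exact permutation tests over the 12870 ways of assigning 8 of 16 mice gave p = 0.107 for BC005561, 0.120 for Gucy1a2, and 0.331 to 0.928 for the other 8; the smallest such p possible is 0.000155. Over all loci 0.00543% were called (1 locus), 4.65% had an unadjusted p under 0.05 and 0.0271% had groups that did not overlap, and none of the 10 did in any of these counts. For Lnpep the young interval was −0.11 to 0.13. The other loci of Xkr4 and Ptpn4 had wider intervals, −0.32 to 0.67 and −0.26 to 0.68. The difference between the 2 experiments was not tested, since their tables were made and normalised separately.

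**Figure D3:**
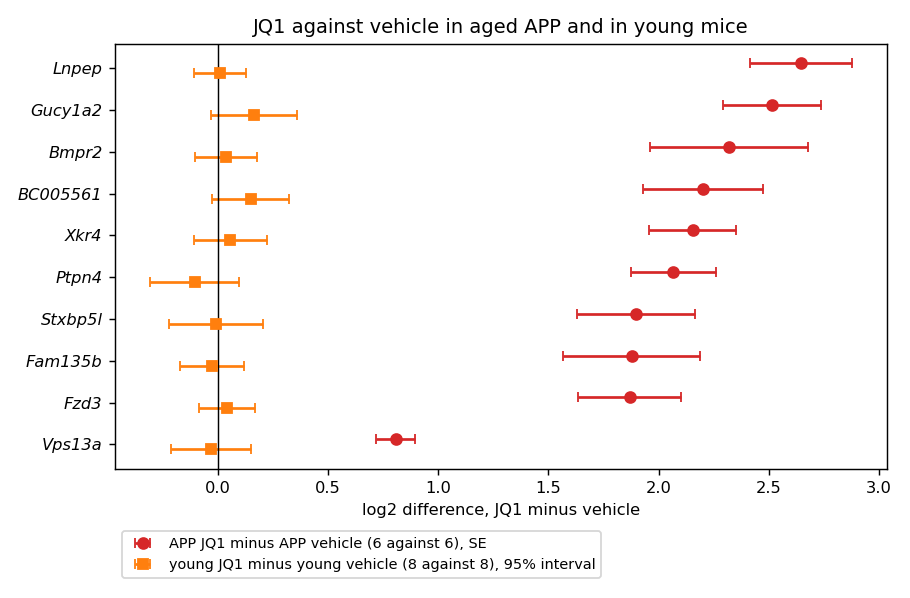
Log2 difference of JQ1 from vehicle for the 10 genes in aged APP mice (circles, bar ± SE, description only) and in young mice (squares, bar 95% interval). Young values lie between −0.11 and 0.16 and APP values between 0.81 and 2.65.

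Levels across groups were set side by side by rank, as CPM per kb of exons in aged mice and FPKM in young mice over 13618 genes common to both. In WT vehicle mice the 10 genes lay between the 5.17 percentile (Fzd3) and the 34.97 percentile (Vps13a), with a median of 11.9. In APP vehicle mice they lay between 5.42 and 31.3, with a median of 9.99. In APP JQ1 mice they lay between 18.6 (Fzd3) and 50.6 (Stxbp5l), with a median of 31.0. In young vehicle mice they lay between 47.6 (BC005561) and 77.1 (Stxbp5l), with a median of 56.8, and in young JQ1 mice between 49.6 and 76.6. The order of the group means was thus WT vehicle and APP vehicle lowest, APP JQ1 next and both young groups highest for each of the 10. On this scale the samples of WT vehicle overlapped those of APP vehicle for each gene but Vps13a, whose lowest WT sample (33.7) lay just above its highest APP vehicle sample (33.6), and those of the young groups overlapped each other. Lnpep moved from 7.42 in WT and 9.13 in APP vehicle to 33.1 in APP JQ1, and stood at 68.1 in young vehicle mice. Fzd3 stood at 5.17, 5.42, 18.6 and 57.0 in the same order. For the gap to the young mice, no test was made. Age, sex, days of injection, read counting (HTSeq or Cufflinks) and the length used for scaling cannot be told apart. Aged values were divided by the merged length of all annotated exons, which need not be the length behind the FPKM.

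The genes moved together between samples. After the mean of its group was removed from each log2 value, all 45 pairs of the 10 genes had a positive Pearson r over the 16 aged samples, with a median of 0.58 (range 0.19 to 0.93). Over all pairs of 16962 genes the median was −0.00 and 49.8% of pairs were positive. The 90th percentile over all pairs was 0.47. Within the 6 APP JQ1 mice the median of the 45 pairs was 0.71 with 42 positive, just above the 90th percentile of all pairs there (0.68). Within the 6 APP vehicle mice it was 0.68 with 45 positive, beside a 90th percentile of 0.65. These are descriptions: the points share libraries, and the genes were chosen on these samples.

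The members of the group were not equally close. Stxbp5l followed the mean of the other 9 most closely (r = 0.96, rho = 0.96, n = 16; r = 0.91 without APP vehicle replicates 2 and 3, the 2 samples farthest from the median). Ptpn4 (r = 0.92, rho = 0.92, then r = 0.85) and Bmpr2 (r = 0.91, rho = 0.86, then r = 0.82) came next. Gucy1a2 (r = 0.47, rho = 0.52, then r = 0.56), Vps13a (r = 0.49, rho = 0.48, then r = 0.24) and Fzd3 (r = 0.54, rho = 0.59, then r = 0.54) were the loosest. The closest pairs were Ptpn4 with Stxbp5l (r = 0.93), Bmpr2 with Stxbp5l (r = 0.92) and BC005561 with Fam135b (r = 0.91). APP vehicle replicate 2 was the highest APP vehicle mouse for 8 of the 10 genes (Gucy1a2 and Fzd3 were highest in replicate 6), and APP vehicle replicate 3 was the lowest for Lnpep, Ptpn4, BC005561, Fzd3, Stxbp5l and Fam135b.

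The mean of the 10 moved partly with the share of reads outside exons. Over the 16 aged samples, with group means removed, r was 0.48 and rho 0.37, falling to r = 0.17 without the 2 farthest samples (APP JQ1 replicate 2 and APP vehicle replicate 2). With the number of gene reads r was −0.14 (rho −0.11), and with the log10 sum of liver-type genes −0.11 (rho −0.08). The part of each in the movement of the genes was not tested.

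In young mice, whose samples were not used in the choice, all 45 pairs were again positive over 16 samples, with a median r of 0.63 (range 0.04 to 0.90), while the median over all pairs of 18420 loci was 0.005 and the 90th percentile 0.41. Within the 8 young JQ1 mice the median was 0.57 with 42 of 45 positive, beside a 90th percentile of 0.55, and within the 8 young vehicle mice 0.74 with 45 of 45, beside 0.54. With each sample corrected for exon GC content and length, the young median was 0.31, whereas the aged median was 0.53. The young 0.31 lay below the 90th percentile over all pairs of uncorrected values (0.41). Corrected values over all pairs are not given here, so these 2 medians have no background of their own. Lnpep followed the mean of the other 9 most closely (r = 0.90, rho = 0.77, then r = 0.81 without young JQ1 replicate 8 and young vehicle replicate 2). Vps13a was the loosest again (r = 0.35, rho = 0.40, then r = 0.16).

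**Figure D4:**
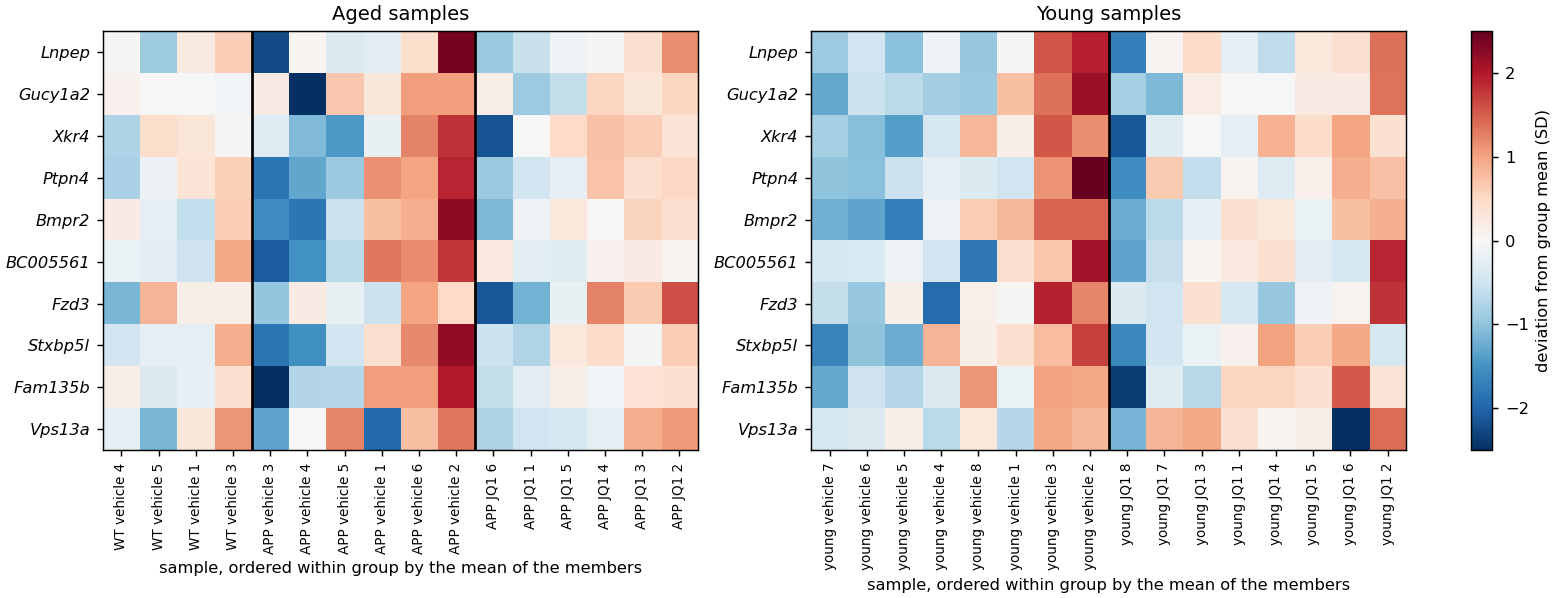
Deviation of each of the 10 genes from its group mean in each aged (left) and young (right) sample, in SD of that gene, with samples ordered within group by the mean of the genes. Many columns are largely of 1 colour, as for APP vehicle replicates 3 (low) and 2 (high), and others are mixed, as for WT vehicle replicate 1. The median r over pairs was 0.58 in aged and 0.63 in young samples.

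Genes outside the group whose pattern was most like its mean over the 16 aged samples included Ttc37 (r = 0.95), Dok6 (r = 0.95), Kcnma1 (r = 0.93) and Zfp169 (r = 0.93). These genes differed in their own change: the log2 difference of JQ1 from vehicle in APP mice was 1.54 for Dok6 (SE 0.40), an adaptor of receptor tyrosine kinases, and 0.96 for Kcnma1 (SE 0.28), the BK potassium channel, but 0.34 for Ttc37 (SE 0.14) and −0.15 for Zfp169 (SE 0.27). In young mice the 5 most alike were Dmxl1 (r = 0.94), Etnk1 (r = 0.94), Lcor (r = 0.92), Ube3a (r = 0.91) and Ythdc2 (r = 0.91), with log2 differences of 0.02 to 0.14. These 9 genes had exonic lengths of at least 7913 bases, and their exon GC content was 34.6 to 45.9%.

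The 10 genes were long and poor in GC. Their merged exonic length was 5409 (BC005561) to 19492 bases (Fam135b), with a median of 12062.5 against 4116.5 over 16770 genes. Of the 10, 6 lay above the 90th percentile of exonic length: Ptpn4 (11321), Fzd3 (12804), Lnpep (14144), Vps13a (17801), Bmpr2 (17983) and Fam135b (19492). Exon GC content was 38.0% (Ptpn4) to 45.1% (Xkr4), with a median of 39.4% against 49.5%, and 8 of the 10 lay below the 10th percentile. Fam135b (42.2%) and Xkr4 (45.1%) were the exceptions. The span of the gene was 14260 bases for BC005561 and 70015 to 465598 bases for the other 9, against a median of 21989.5. The number of merged exons ranged from 2 (BC005561) and 4 (Xkr4) to 78 (Vps13a). The 3′ UTR of the longest coding transcript was 14291 bases in Fam135b, 10270 in Fzd3, 8529 in Bmpr2, 8339 in Lnpep and 7364 in Ptpn4, against a median of 1125 over coding genes, but 1540 in Xkr4, 1179 in Vps13a, 714 in Stxbp5l, 228 in BC005561 and 25 in Gucy1a2. A long 3′ UTR was thus shared by 5 of the 10 in this 1 transcript per gene. The 3′ UTRs of other transcripts were not measured. Gucy1a2, for example, had 6650 merged exonic bases and a coding sequence of 2193.

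**Figure D5:**
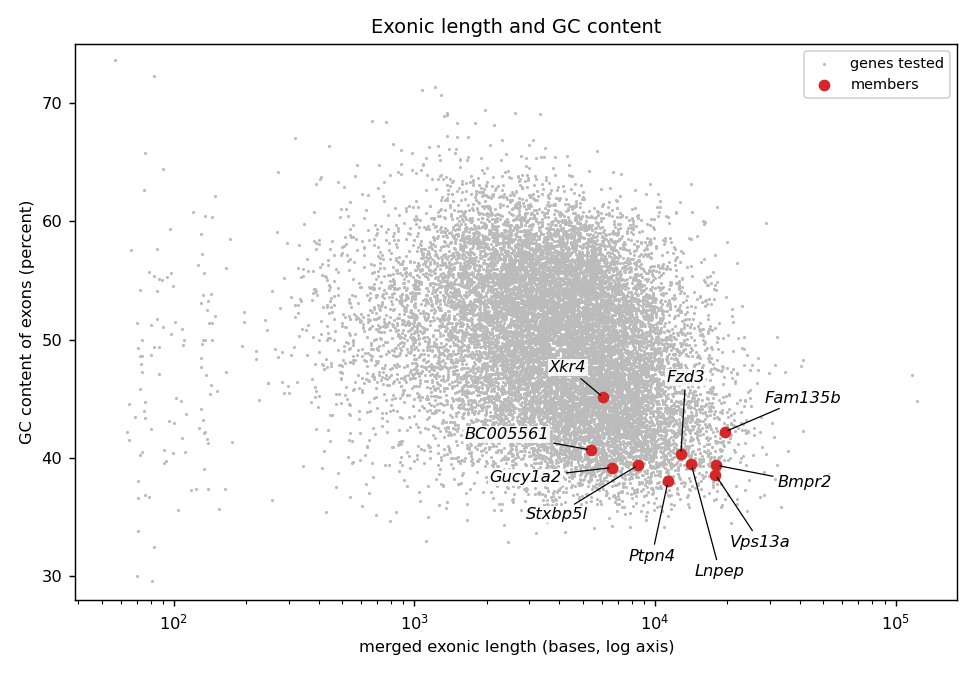
Merged exonic length (bases, log axis) against exon GC content (percent) for the 16770 genes tested with an annotation (grey) and the 10 genes (red). The 10 lie at 5409 bases or more and at 45.1% GC or less.

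Over all genes the difference of JQ1 from vehicle in APP mice varied with these features. With genes split into 10 equal bins by exon GC content, the median log2 difference fell from 0.22 in the lowest bin (29.6 to 41.4% GC) to −0.25 in the highest. Genes called higher made up 4.05% of the lowest bin and 0% of the highest, and genes called lower 0.06% and 3.34%. By exonic length the median rose from −0.04 in the shortest bin to 0.09 in the longest, where 3.58% were called higher. For APP vehicle against WT vehicle the median by GC ran the other way, from −0.15 to 0.16. With offsets for both features, as given above, the differences of the 10 genes were 0.48 to 2.39.

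Relatives and partners of the 10 genes are given as counts beside those of all genes. Of 169 other genes in 10 lists of their pathways and families, 152 were tested. Between APP JQ1 and APP vehicle 2 were called higher and 0 lower by edgeR, beside 0.619% and 0.466% of all genes. With DESeq2 5 were higher, and with the share of reads outside exons as a covariate 5 were higher and 6 lower. One was Bmpr1a, a type I receptor that pairs with Bmpr2, at 62.7 ± 5.71 CPM with JQ1 and 47.8 ± 6.93 with vehicle (SD, n = 6 each; log2 difference 0.39, SE 0.09, adjusted p = 0.046). The other was Thoc2, at 74.1 ± 6.26 and 52.2 ± 6.07 CPM (log2 difference 0.51, SE 0.09, adjusted p = 0.0068). Neither was called with the offsets for GC and length or without the 3 libraries richest in liver-type genes. The lists held 1 of 30 BMP receptors and SMADs called, 1 of 14 THO and mRNA export genes, and 0 of 16 nitric oxide-cGMP genes, 25 Frizzled and planar polarity genes, 10 M1 aminopeptidases and partners of Lnpep, 16 related phosphatases, 8 XK and VPS13 genes, 20 SNARE genes, 1 FAM135 gene and 12 BET and P-TEFb genes. Medians of these lists lay between −0.08 and 0.06 on the log2 scale, or 0.33 for Fam135a alone, beside −0.00 over all genes.

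Other close relatives were not called by edgeR. Those named next lie outside the naming rule and were picked for kinship after their values were seen. Gucy1a1, the other cyclase alpha subunit, was 36.9 ± 6.16 CPM with JQ1 and 34.01 ± 6.72 with vehicle, and Gucy1b1, the beta subunit, 169 ± 42.6 and 145 ± 10.9 (SD, n = 6 each). Stxbp5 (tomosyn-1) was 151 ± 11.7 and 128 ± 14.1 CPM, with a log2 difference of 0.23 (SE 0.08, adjusted p = 0.13). Vps13c was 83.8 ± 14.4 and 49.3 ± 18.3 CPM, with a log2 difference of 0.77 (SE 0.20, adjusted p = 0.073), beside 0.81 for Vps13a. Vps13b and Vps13d had smaller log2 differences, 0.34 (SE 0.09, adjusted p = 0.072) and 0.16 (SE 0.15, adjusted p = 0.63). Xkr6 (−0.03, SE 0.21) and Ptpn3 (−0.14, SE 0.14) were slightly lower with JQ1. Fam135a was 40.7 ± 2.73 and 32.4 ± 3.40 CPM (log2 difference 0.33, SE 0.08, adjusted p = 0.052). Fzd1, Fzd4, Fzd6 and Fzd7 had log2 differences of −0.03 to 0.45, none called. All adjusted p-values of these genes are from the edgeR quasi-likelihood test.

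In the other comparisons 5 calls were made among the listed genes. Between APP vehicle and WT vehicle 3 of 152 were higher and 0 lower, beside 2.49% and 0.0825% of all genes: Lrp5, a Wnt co-receptor (log2 difference 0.72, SE 0.18, adjusted p = 0.036 by edgeR), and the phosphatases Ptpn6 (2.05, SE 0.38, adjusted p = 0.0092), found mainly in blood-derived cells and microglia, and Ptpn18 (1.16, SE 0.23, adjusted p = 0.010). Of the 39 cell type markers tested, 3 were called higher in APP vehicle than in WT mice and 0 lower, beside the same shares of all genes. They were the microglial markers Csf1r and Cx3cr1 and the astrocyte marker Gfap, with log2 differences of 1.28, 1.18 and 3.18. Between APP JQ1 and WT vehicle 1 of 152 was higher and 1 lower, beside 1.93% and 0.13% of all genes. Ptpn6 was higher (1.78, SE 0.38, adjusted p = 0.022) and Cplx1, a SNARE regulator, was lower (−0.35, SE 0.09, adjusted p = 0.036). Of the 39 markers, 5 were called higher and 1 lower in that comparison. Higher were Gfap (2.92), Aqp4 (0.86), Slc1a3 (0.49), Cx3cr1 (1.21) and Csf1r (1.18), and the interneuron marker Sst was lower (−0.48). In young mice 0 of 145 loci of listed genes were called by limma, beside 0.00543% of all loci.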

How the data were processed

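RNA-seq of CA1 was available for 16 aged and 16 young mice; 1 labelled WT sample was not analysed here. For the aged mice the authors deposited raw counts per gene, made with HTSeq after alignment to mm10 by STAR with at most 2 mismatches. For the young mice the deposited values were FPKM per locus from Cufflinks and Cuffdiff, which hide depth. TopHat and CASAVA 1.8.2 are also in the submitters' processing notes; other versions and the strand setting are not given in the sources used here.

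Counts were scaled by TMM and fitted over all 3 aged groups with the edgeR 4.0.16 quasi-likelihood test (R 4.3.3), after filterByExpr left 16962 of 38355 genes. HTSeq's summary lines were kept out of library sizes; reads outside exons were 15.4 to 26.9%. For young mice limma 3.58.1 (trend, robust) was run on log2(FPKM + 0.1) for 18420 of 40678 loci with FPKM of at least 0.5 in at least 8 samples. A call is an adjusted p under 0.05 (Benjamini-Hochberg). Pearson r used deviations of log2 values from group means (prior count 0.5). Length and GC content came from the reference annotation, with a value for 98.9% of genes tested. DESeq2 1.42.0 was an alternative. The scripts were tested on simulated data. Python 3.11.15 with scipy 1.17.1 gave the exact permutation tests.

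Named were the 10 genes, called genes of the lists (at most 4 a list by size), the 5 genes most alike in each experiment (1 of the aged ones is not reported here) and the neighbours in the order of calls. The 10 genes and the lists were chosen with earlier results of these data known.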

Additional observations from a re-analysis of the deposited data

Results flagged for a closer look

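In 5 of the 50 sets of values formed by the 10 genes and 5 groups (10%), the highest or lowest sample stood apart from the rest of its group by a large share of the group's range (above Dixon's critical value); chance alone marks about 1 in 20 groups. Gucy1a2 was 0.754 CPM in APP vehicle replicate 4, whose nearest neighbour was 2.03 CPM, and this library was also rich in liver-type genes (711 CPM). Xkr4 was 13.9 CPM in APP JQ1 replicate 6, the lowest of its group, with the next at 23.1 CPM. Stxbp5l was 19.5 CPM in WT vehicle replicate 3, the highest of its group, with the next at 13.6 CPM. In young JQ1 mice, Fzd3 was 12.8 FPKM in replicate 2, with the next at 11.5, and Xkr4 was 8.38 FPKM in replicate 8, with the next at 10.2.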

How the results depend on the processing

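Alternatives changed how many genes were called far more than the differences of the 10 genes. Between APP JQ1 and APP vehicle, all 10 were called under each setting except without the 3 libraries rich in liver-type genes (8). Genes called in all numbered 184, against 518 with DESeq2, 517 with the share of reads outside exons as a covariate, 31 with GC and length offsets, 16 without the liver-rich libraries, 117 without the 2 libraries richest in reads outside exons, and 65 (without APP JQ1 replicate 2) to 446 (without WT vehicle replicate 1) leaving out 1 library. Vps13a, at 0.81, was 0.48 with the offsets. Listed genes called higher numbered 2, against 5 with DESeq2 or the covariate (which also called 6 lower), 1 with no filter or only the 2 groups, 0 with the offsets or without the liver-rich libraries, and 1 to 6 leaving out 1 library, with 0 to 2 lower.

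Between APP vehicle and WT vehicle 0 of the 10 were called under each setting. Genes called numbered 436, against 672 with DESeq2, 679 with only the 2 groups, and 154 (without WT vehicle replicate 1) to 601 (without APP JQ1 replicate 4) leaving out 1 library. Listed genes were 5 higher and 1 lower with only the 2 groups, 1 lower with the offsets, and 2 to 3 higher with 0 lower leaving out 1 library. Between APP JQ1 and WT vehicle the 10 called became 6 without WT vehicle replicate 5, 8 without replicate 3 or 4 and 9 without replicate 1. Genes called numbered 349, against 694 with DESeq2, 543 with the offsets, 227 with only the 2 groups, 112 with the covariate, 849 without the liver-rich libraries, 76 without those richest in reads outside exons, and 11 (without WT vehicle replicate 5) to 651 (without APP JQ1 replicate 4) leaving out 1 library. Listed genes higher and lower were 6 and 2 with DESeq2 or without the liver-rich libraries, 2 and 4 with the offsets, 0 and 2 with the covariate, 0 and 0 with no filter or without the libraries richest in reads outside exons, and 0 to 4 and 0 to 2 leaving out 1 library.

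Shared replicate numbers were not taken as pairs, since not every pair correlated above 0.1: the correlation of same-numbered samples was −0.12 to 0.34 between the APP groups (3 of 6 over 0.1, mean 0.11 against −0.02 for other pairs, 3 of 6 best with their own number), −0.52 to 0.17 and −0.20 to 0.02 with WT, and −0.07 to 0.10 in young mice. With the replicate block, genes called were 87 (APP JQ1 against APP vehicle), 35 (APP vehicle against WT) and 21 (APP JQ1 against WT, with 6 of the 10), and 21, 86 and 33 (7 of the 10) with the block and offsets together. Listed genes called with the block were 1, 0 and 0 higher and 0 lower, and 0 with the offsets too. In young mice the block left 0 loci called.

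In young mice 0 of the 10 were called under each setting, and loci called were 0 with no filter and 0 to 2 leaving out 1 library. The sign of differences near 0 changed: Lnpep was −0.00036 with median-ratio rescaling and −0.0137 to 0.0368 leaving out 1 library, and likewise Stxbp5l was −0.0600 to 0.0419, Vps13a −0.0683 to 0.0326 and Fam135b −0.0576 to 0.0180. The median r was 0.54 to 0.66 in aged and 0.52 to 0.71 in young mice leaving out 1 library. It was 0.51 to 0.58 in aged mice under the other settings, and 0.31 in young mice with GC and length correction. The cause of these changes was not tested. The low counts of Gucy1a2, down to 14 reads, limit its precision, and the depth behind the FPKM is unknown.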
